A study of Mus musculus with 10 samples.

Results

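RNA-seq libraries of the Axin2 and the Pdgfra lineage of the adult mouse lung mesenchyme, each sorted by FACS on a single label, were compared. The members were chosen by the lineage in the labels: the 2 libraries of the tdT lineage (Axin2) and the 2 of the GFP lineage (Pdgfra), 4 of the 10 libraries of the series. Both lineages came from adult mice with the same genotype, Axin2CreERT2:tdT:PdgfraEGFP. All cells of that line therefore carried the inducible Axin2CreERT2 recombinase allele, the tdT reporter and the PdgfraEGFP reporter. CreERT2 recombines after tamoxifen, so tdT marks cells that expressed Axin2 when tamoxifen was given, and their descendants, whereas EGFP from the Pdgfra locus reports present expression. The sources used here do not give the tamoxifen schedule, the gates, the number of mice or whether the libraries of a lineage came from separate animals. Thus each p-value covers no more than the variation among these libraries, part or all of which may be technical. The other 6 libraries, 2 each of cells with both labels (Axin2:Pdgfra), cells with neither (Negative) and a Wnt2 lineage from another line (Wnt2CreERT2:R26REFYP), entered the fit only to estimate the spread, and are given as context. In bulk samples, fewer cells of a type and less RNA per cell cannot be told apart.

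Axin2 is a feedback inhibitor of canonical Wnt signalling and one of its most used target genes, so an Axin2-driven recombinase marks cells that responded to Wnt. Pdgfra and Pdgfrb encode the receptor tyrosine kinases for platelet-derived growth factors. In the lung, Pdgfra is known as a gene of alveolar fibroblasts and myofibroblasts, while Pdgfrb, with Notch3, marks pericytes and vascular smooth muscle, the mural cells that wrap vessels. Contractile genes such as Acta2 are shared by vascular and airway smooth muscle and by myofibroblasts. The comparison asked which transcripts went with each label.

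Values are the authors' deposited log2 expression values, so a log2 difference of 1 is a change by a factor of 2. Differences are Axin2 minus Pdgfra, with their standard error (SE), and positive differences are higher in Axin2. Of 14177 genes tested with limma, 320 passed an adjusted p of 0.05, or 2.26% in either direction. In Axin2, 141 genes (0.995%) were higher, by 0.86 to 9.28 with a median of 3.64. Another 179 (1.26%) were lower, with differences of -11.02 to -0.91 and a median of -2.59. The extremes of both ranges belong to genes listed at the lowest value in both libraries of the other lineage, and depend on that value. The median difference over all genes tested was 0.01. At an unadjusted p under 0.05, 1097 genes were higher and 1235 lower. For 49.5% of all genes tested, the 2 Axin2 libraries did not overlap the 2 Pdgfra libraries, so a lack of overlap is common here; it held for all 320 genes called.

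These counts leaned on single libraries. Leaving out a library of a compared lineage leaves that lineage with 1, which is then assumed to vary like the other groups. The number of genes called was 98 with Axin2 library 1 left out, 32 with Axin2 library 2, 44 with Pdgfra library 1 and 110 with Pdgfra library 2 left out. It was 186 and 206 when Wnt2 libraries 1 and 2 were left out, and 531 and 541 when Negative libraries 0 and 2 were. By the rule for named genes 98 called genes could be described. Of these, 18 kept their call without each of the 10 libraries in turn: Pdgfrb, Postn, Pdzd2, Notch3, Gucy1a1, Ltbp2, Pcdh18, Acta2, Pde5a, Gm15948, A730049H05Rik, Neat1, Macf1, Gria3, Sned1, Fat3, Ptprd and Cacna1d. The calls also rested on how limma estimated the spread: without its trend and robust estimation, 61 genes were called, 76 of the 98 lost their call, and no list of genes below held more than 2 called members. Of the 18, Pdgfrb, Notch3, Pcdh18, Gm15948, A730049H05Rik, Neat1 and Gria3 were still called in that fit. None of the 98 turned its direction in any of the fits. For most genes described below, the libraries whose removal ended a call are given.

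The libraries were alike in distribution, with medians of 9.1 to 9.11. The lowest value of a library was shared by 8.09% and 9.75% of genes in Axin2 libraries 1 and 2, against 8.02% and 2.09% in Pdgfra libraries 1 and 2. Spearman correlations across genes were 0.860 within Axin2, 0.853 within Pdgfra and 0.732 to 0.809 between them. The library descriptions give 2 index sequences each: Axin2 libraries 1 and 2 and Pdgfra library 2 share the second, and Pdgfra library 1 has another. Nothing says whether that index marks a batch. With it as a term 179 genes were called, 78 higher and 101 lower.

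Pdgfra, the gene behind the GFP label, had values of 13.49 and 13.00 in the Axin2 libraries, against 14.64 and 14.92 in the Pdgfra libraries. It was lower in Axin2 by a log2 difference of -1.53 ± 0.36 (SE; limma, adjusted p = 0.0417). Both Axin2 libraries lay under both Pdgfra libraries, while the Axin2:Pdgfra libraries, at 14.91 and 15.21, lay near the Pdgfra ones. That call was lost without any 1 library other than the Negative ones (adjusted p up to 0.337). It was lost too with a trend on exonic length, described below, removed (-1.12, adjusted p = 0.158), with the second index as a term (-1.41, adjusted p = 0.0928), with only the 8 libraries of 1 line (adjusted p = 0.0714) and without trend and robust estimation (adjusted p = 0.296). Axin2 itself had values of 10.47 and 11.57 in Axin2, against 10.39 and 11.06 in Pdgfra, and the groups overlapped. Its difference did not pass the test (95% confidence interval -1.30 to 1.89, adjusted p = 0.877), and its sign turned without Axin2 library 2 (-0.26) or Pdgfra library 1 (-0.04). Wnt2 also overlapped, at 9.71 and 10.40 in Axin2 and 7.68 and 10.33 in Pdgfra (adjusted p = 0.597), and its sign turned without Pdgfra library 1 (-0.27).

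Pdgfrb, the other PDGF receptor, stood the opposite way from Pdgfra. It had values of 16.32 and 16.94 in the Axin2 libraries and 12.59 and 12.53 in the Pdgfra libraries, a difference of 4.07 ± 0.31 (limma, adjusted p = 1.84e-05). No fit without a single library ended that call, and the largest adjusted p among them was 0.00261. Among the ligands, Pdgfa had 11.85 and 12.20 in Axin2 against 9.77 and 9.66 in Pdgfra, and Pdgfb had 6.68 and 6.22 in Axin2 against 10.01 and 9.35 in Pdgfra, but neither passed the test (adjusted p = 0.0983 and 0.128). Pdgfc and Pdgfd did not pass it either. Thus 1 of the 6 PDGF ligands and receptors was higher and 1 lower.

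**Figure D1:**
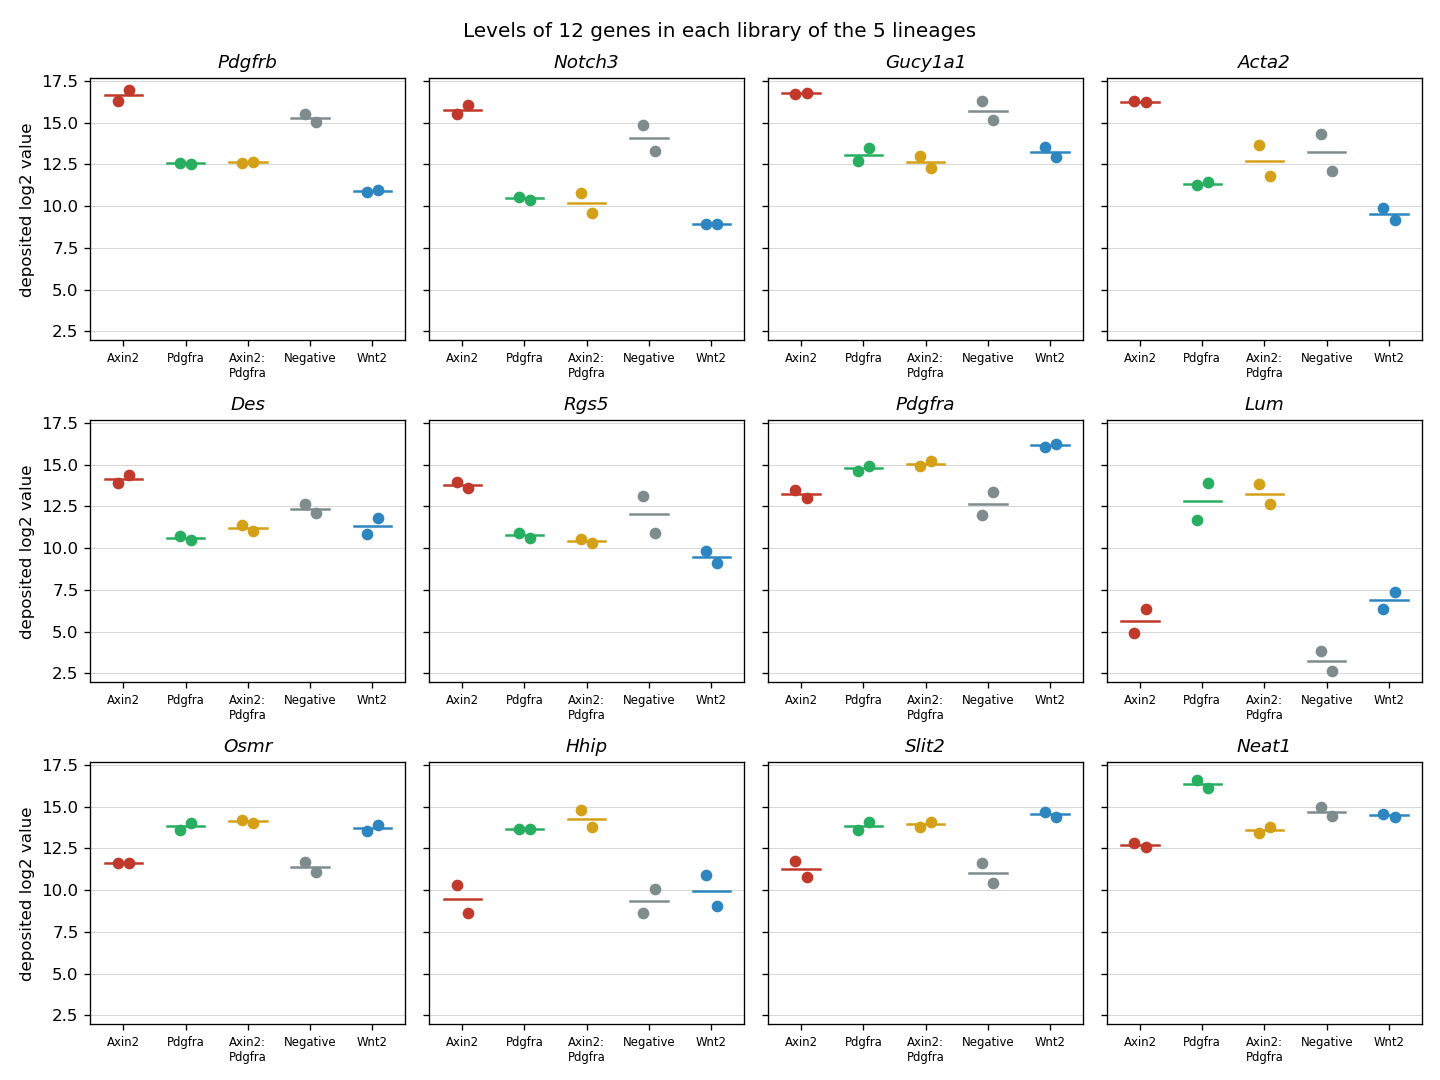
Deposited log2 values of 12 genes in each of the 10 libraries, by lineage. Points are libraries and horizontal lines are the means of 2. In Pdgfrb, Notch3, Gucy1a1, Acta2, Des and Rgs5 both Axin2 points lie above both Pdgfra points (Pdgfrb at 16.32 and 16.94 in Axin2 against 12.59 and 12.53 in Pdgfra), and in the other 6 genes below them.

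Most pericyte and mural cell genes were higher in Axin2. Of 20 genes on that list, all tested, 14 were higher and none lower, and the median difference was 3.76 against 0.01 over all genes. Notch3, a receptor needed for mural cell maturation, had 15.50 and 16.05 in Axin2 and 10.57 and 10.38 in Pdgfra (5.30 ± 0.55; adjusted p = 0.000345). Gucy1a1, a subunit of the soluble guanylate cyclase that senses nitric oxide, had 16.74 and 16.80 in Axin2 and 12.67 and 13.49 in Pdgfra (3.69 ± 0.39; adjusted p = 0.000356). In both genes the 2 lineages were far apart relative to the spread within each. The other subunit, Gucy1b1, had 14.82 and 15.01 in Axin2 against 10.51 and 11.65 in Pdgfra (3.83 ± 0.59; adjusted p = 0.00483). Classical pericyte markers went the same way. Rgs5, a regulator of G-protein signalling, had 13.96 and 13.58 in Axin2 and 10.92 and 10.60 in Pdgfra (3.01 ± 0.65; adjusted p = 0.0274). Cspg4, which encodes the proteoglycan NG2, had 14.24 and 14.74 in Axin2 against 11.78 and 10.03 in Pdgfra, and Mcam, which encodes CD146, had 14.61 and 14.81 in Axin2 against 12.07 and 11.61 in Pdgfra. Postn, which encodes the matricellular protein periostin, stood at 16.58 and 16.53 in Axin2, against 12.52 and 12.56 in Pdgfra (4.02 ± 0.40; adjusted p = 0.000278).

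Cox4i2 and Higd1b, mitochondrial genes used as markers of lung pericytes, were also higher, as were Pdzd2, the transcription factor genes Ebf1 and Heyl, and Trpc6, which encodes a cation channel. Trpc6 had 13.12 and 13.20 in Axin2 against 8.68 and 3.62 in Pdgfra, where the libraries were far apart. The 6 members that did not pass the test were Kcnj8, Abcc9, Ndufa4l2, Lamc3, Angpt1 and Vtn. Kcnj8 and Abcc9 encode the subunits of the ATP-sensitive potassium channel of pericytes, and in both the 2 lineages overlapped: Abcc9 had 12.45 and 12.06 in Axin2 and 12.12 and 12.90 in Pdgfra. With a library left out, the list held 6 higher members (Axin2 library 1), 5 (Axin2 library 2), 6 (Pdgfra library 1) or 8 (Pdgfra library 2). With the second index as a term it held 8, and without trend and robust estimation 2. The calls of Pdgfrb, Notch3, Gucy1a1, Postn and Pdzd2 stood in each of the 10 fits that left out a library. Those of Rgs5, Cspg4, Mcam, Ebf1 and Higd1b were lost without any 1 of the 4 libraries of the compared lineages (adjusted p up to 0.356), that of Higd1b also without either Wnt2 library. Gucy1b1 was lost without Axin2 library 2 or Pdgfra library 1, Cox4i2 and Heyl without either Axin2 library or Pdgfra library 1, and Trpc6 without either Axin2 library or Pdgfra library 2.

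Contractile genes of smooth muscle were among those higher in Axin2. Of the 20 on the list, 10 were higher and none lower, and the median difference was 3.41. Acta2, smooth muscle alpha-actin, had 16.28 and 16.25 in Axin2 and 11.24 and 11.42 in Pdgfra (4.93 ± 0.66; limma, adjusted p = 0.0016). Des, the intermediate filament desmin, had 13.91 and 14.37 in Axin2 against 10.70 and 10.49 in Pdgfra (3.54 ± 0.46; adjusted p = 0.00138). Myl9, a myosin regulatory light chain, had 14.40 and 14.70 in Axin2 against 10.88 and 10.43 in Pdgfra (3.89 ± 0.54; adjusted p = 0.00205). In all 3 genes the libraries of a lineage lay within 1 log2 unit of each other. Cnn1, calponin, showed a wider gap and a wider spread, at 13.52 and 13.44 in Axin2 and 3.72 and 7.99 in Pdgfra (7.63 ± 1.28; adjusted p = 0.00724). Myh11, the smooth muscle myosin heavy chain, had 14.81 and 14.72 in Axin2 and 11.29 and 11.32 in Pdgfra (3.46 ± 0.77; adjusted p = 0.0314). Tagln, Tpm2, Actg2, Actc1 and the collagen-binding integrin gene Itga1 completed the 10.

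Acta2, Actg2 and Actc1 encode near-identical actins, and how reads were split between them is not given in the sources used here, so their separate values are uncertain. Mylk and Cald1, which regulate contraction, were not among the genes called. Mylk had 15.14 and 15.19 in Axin2 against 15.77 and 15.92 in Pdgfra (-0.68 ± 0.21; adjusted p = 0.124), and Cald1 overlapped. Myocd, the coactivator that drives the contractile programme, had 10.71 and 10.77 in Axin2 against 7.72 and 6.49 in Pdgfra but did not pass the test (adjusted p = 0.236). Leaving out a library gave 3 higher members (Axin2 library 1), 1 (Axin2 library 2), 4 (Pdgfra library 1) or 5 (Pdgfra library 2). With the second index as a term there were 7, and without trend and robust estimation 0. Acta2 was called in every fit that left out a library. Without Axin2 library 2 the calls of Des (adjusted p = 0.0509) and Myl9 (adjusted p = 0.061) were lost, and those of Cnn1 and Actc1 without either Axin2 library or Pdgfra library 1 (adjusted p up to 0.195). Myh11, Tpm2, Itga1 and Actg2 were lost without any 1 of the 4 libraries and Tagln without 3 of them, Pdgfra library 1 being the exception. Actg2 was lost also without an Axin2:Pdgfra or a Negative library, and Tagln without a Wnt2 library.

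Contractile genes are classical targets of serum response factor, which binds the CArG box: CC, then A or T at 6 positions, then GG. The 250 bases before the gene start were searched on both strands in the RefSeq promoter table, whose build (GRCm38.p6) is not that of the expression tables (mm9). Of the 10 contractile genes called, 7 had a promoter in that table and 2 of these (28.6%) held the motif. Of the 10 not called, 9 had a promoter and 2 (22.2%, Cnn2 and Myl6) held it, beside 439 of 27025 promoters in all (1.62%). The 2 promoters of called genes are shown 5′ to 3′ on the strand of the gene, to let the motif be seen beside the values of Myl9 and Actc1, with the CArG box in capitals. That of Myl9 spans chr2:156775214-156775463 on the plus strand, where the box begins 161 bases before the gene start. That of Actc1 spans chr2:114052876-114053125 on the minus strand, where it begins 47 bases before it. A match describes these letters only.
Myl9: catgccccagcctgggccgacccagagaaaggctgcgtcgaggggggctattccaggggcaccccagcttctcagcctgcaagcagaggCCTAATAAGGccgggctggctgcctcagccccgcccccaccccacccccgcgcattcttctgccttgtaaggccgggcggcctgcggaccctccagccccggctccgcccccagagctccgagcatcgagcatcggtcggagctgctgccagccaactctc
Actc1: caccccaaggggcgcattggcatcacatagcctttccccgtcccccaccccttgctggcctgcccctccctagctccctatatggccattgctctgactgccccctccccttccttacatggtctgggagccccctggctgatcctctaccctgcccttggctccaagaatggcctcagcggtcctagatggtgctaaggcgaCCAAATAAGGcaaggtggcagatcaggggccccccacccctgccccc

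Genes that set vessel tone gave calls in both directions. Of 22 vasoactive receptors, RGS proteins and cyclic GMP genes tested, 4 were higher and 1 lower, with a median of 0.28. The higher ones act inside the cell: Rgs4 and Rgs5, which turn off G proteins, Gucy1a2, a guanylate cyclase subunit, and Pde5a, the phosphodiesterase that breaks down cyclic GMP. Pde5a had 16.14 and 16.28 in Axin2 and 13.21 and 12.87 in Pdgfra (3.17 ± 0.42; limma, adjusted p = 0.00143), and it kept its call without each library. Rgs4 had 13.87 and 13.75 in Axin2 against 8.73 and 7.58 in Pdgfra (5.65 ± 0.95; adjusted p = 0.00724), and that call was lost without any 1 of the 4 libraries. The lower one was the receptor gene Adra1a, but receptors that were not called went both ways, with 6.10 for Agtr1a and -1.93 for Npr1. Adra1a, the alpha-1A adrenergic receptor, had 9.50 and 8.54 in Axin2 and 12.11 and 13.66 in Pdgfra (-3.86 ± 0.65; adjusted p = 0.00724), a call lost without Axin2 library 2 or Pdgfra library 2. With each of the 4 libraries left out in turn, 1 member of the list was called higher, and with the second index as a term 2 were. The median was 0.59 without Axin2 library 1, 0.03 without Axin2 library 2 and 0.03 with the index. The call of Gucy1a2 was lost without any of the 4 or either Wnt2 library.

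Ion channel genes gave calls in both directions, with 4 of 22 higher, 3 lower and a median of 0.70. Kcnk3, the TASK-1 potassium channel of pulmonary artery smooth muscle, had 13.44 and 13.34 in Axin2 and 8.83 and 9.04 in Pdgfra (4.46 ± 0.67; limma, adjusted p = 0.00392). Kcnmb1, the beta subunit of the large-conductance calcium-activated potassium channel of smooth muscle, had 11.69 and 11.83 in Axin2 against 5.45 and 1.16 in Pdgfra. Kcnq5 and Trpc6 were the other 2. Of the lower genes, Cacna1d, an L-type calcium channel, had 10.75 and 10.59 in Axin2 and 13.63 and 14.14 in Pdgfra (-3.21 ± 0.39, limma adjusted p = 0.000933). Scn7a and Scn3a, the other lower genes, encode sodium channels. Cacna1d was called in every fit without a library. There were 0 higher calls without either Axin2 library, 1 without Pdgfra library 1 and 2 when Pdgfra library 2 was left out. Lower calls numbered 2 without Axin2 library 1 and 1 when any other of the 4 was left out. With the second index as a term 2 were higher. The median was 0.45 without Axin2 library 1 and 1.48 without Pdgfra library 1, and it turned its sign without Pdgfra library 2 (-0.04). With a stricter filter it was 0.34. The calls of Kcnk3 and Kcnq5 were lost without either Axin2 library or Pdgfra library 1. Those of Kcnmb1 and Scn3a were lost without any 1 of the 4 libraries, and that of Kcnmb1 also without either Wnt2 library. Scn7a lost its call without Axin2 library 2 or either Pdgfra library.

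Of 16 Notch receptors, ligands and targets, 3 were higher in Axin2 and none lower (median 0.84, and 0.50 without Axin2 library 1). They were the receptor gene Notch3, the target gene Heyl at 14.51 and 15.02 in Axin2 against 11.76 and 12.88 in Pdgfra (2.44 ± 0.46; limma, adjusted p = 0.0144), and Nrarp, a target that dampens the signal, at 12.52 and 12.96 in Axin2 against 8.83 and 7.66 in Pdgfra (4.50 ± 1.01; adjusted p = 0.0336). The receptors Notch1 and Notch2 and the ligand Jag1 did not pass the test. The calls of Heyl and Nrarp were lost without either Axin2 library or Pdgfra library 1, and that of Nrarp also without Pdgfra library 2, which leaves Notch3. TGGGAA, the core bound by the Notch effector Rbpj, was searched for on both strands of the same promoters. It was found in 0 of the 2 called members with a promoter, in 2 of the 10 uncalled ones (20%, Hey2 and Lfng) and in 24.1% of all promoters. Of 26 mesenchymal transcription factor genes, 3 were higher and none lower. Tbx5, a T-box gene of lung mesenchyme, had 13.90 and 14.26 in Axin2 against 12.38 and 12.79 in Pdgfra (1.5 ± 0.33; adjusted p = 0.031), and Ebf1 and Heyl are given above. None of the 3 was called without Axin2 library 1 or 2 or Pdgfra library 1, and Heyl alone when Pdgfra library 2 was left out. Tbx5 was lost also without either Wnt2 library.

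**Figure D2:**
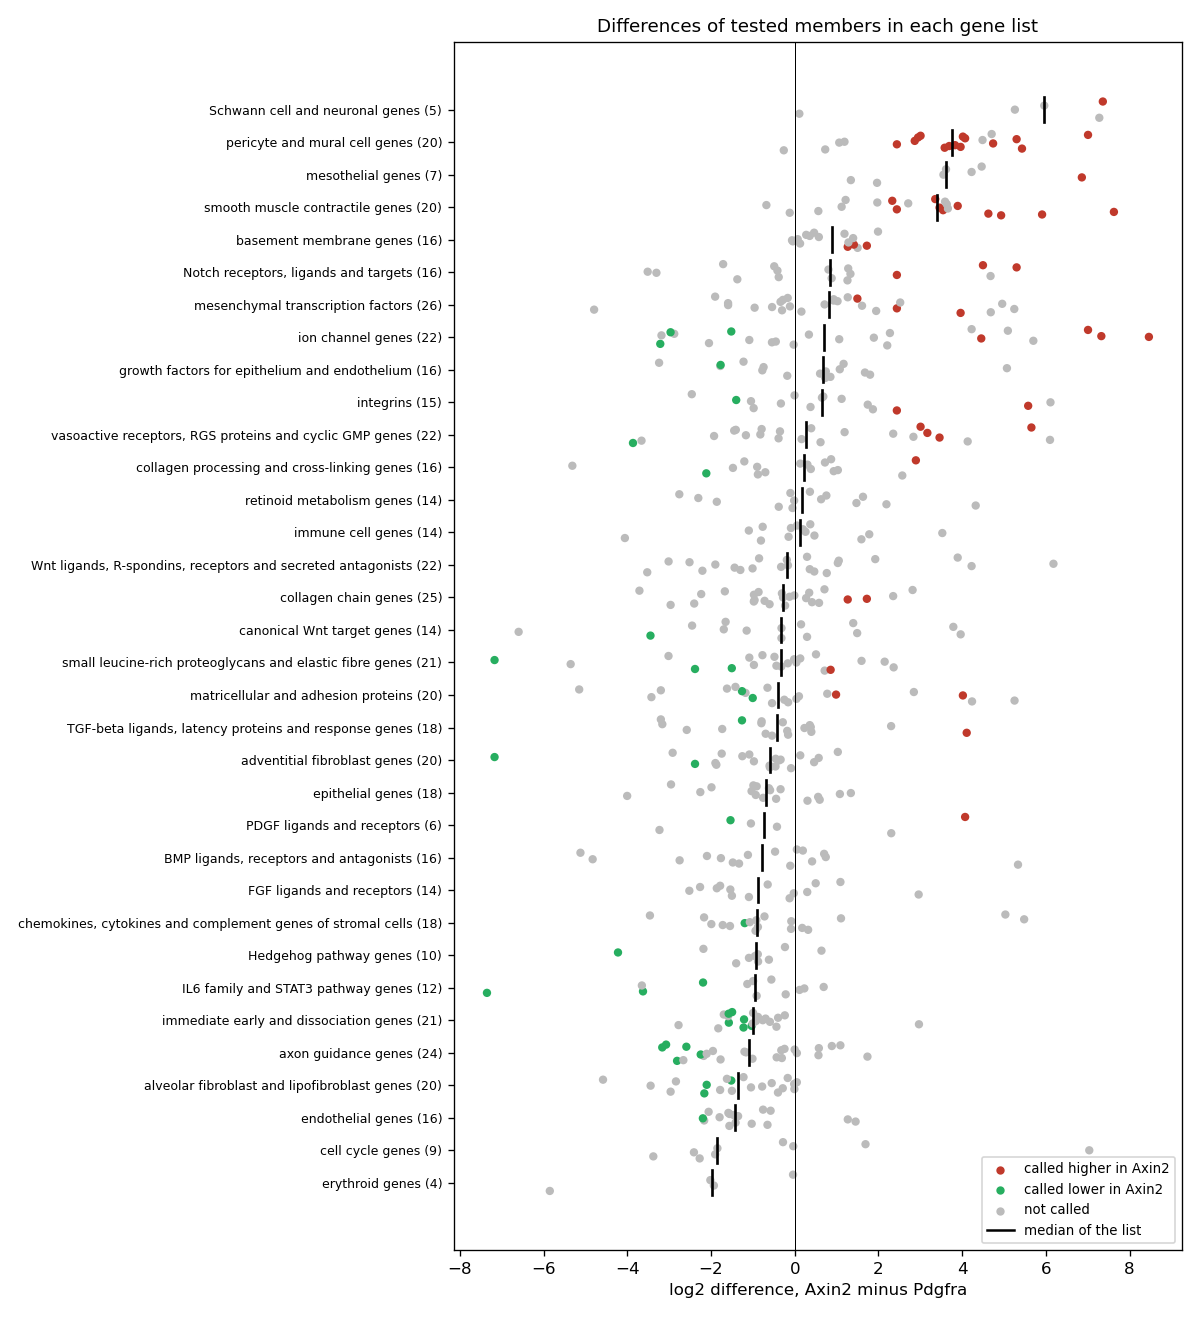
Log2 difference, Axin2 minus Pdgfra, of each tested member of 34 gene lists, with the number of members in brackets and lists ordered by their median (black bar). Red and green points passed the test; pericyte and mural cell genes (14 of 20 higher, median 3.76) and smooth muscle contractile genes (10 of 20 higher, median 3.41) lie to the right. For 3 of the 5 Schwann cell points both Pdgfra libraries are at their lowest value, so their distance from 0 depends on that value.

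Fibroblast genes had mostly negative differences, but few passed the test. Of 20 alveolar fibroblast and lipofibroblast genes, 3 were lower in Axin2 and none higher, while 19 had a negative difference and the median was -1.36. Macf1, a spectraplakin that links actin to microtubules, had 15.74 and 15.49 in Axin2 and 17.72 in both Pdgfra libraries (-2.10 ± 0.18; limma, adjusted p = 4.54e-05). Cdh11, the cadherin of fibroblasts, had 12.41 and 11.96 in Axin2 against 14.08 and 14.60 in Pdgfra (-2.16 ± 0.34; adjusted p = 0.00569). Scn7a had 14.33 and 13.49 in Axin2 against 15.58 and 15.27 in Pdgfra (-1.51 ± 0.30; adjusted p = 0.0187). Other genes that define alveolar fibroblasts did not pass the test. Tcf21, a transcription factor of lipofibroblasts, had 11.50 and 12.98 in Axin2 and 12.03 and 12.78 in Pdgfra (adjusted p = 0.894). Itga8, the integrin alpha-8 gene, had 14.57 and 14.16 in Axin2 against 15.27 and 15.54 in Pdgfra (-1.04 ± 0.26; adjusted p = 0.0528). Col13a1, a membrane collagen, had 9.66 and 7.43 in Axin2 against 10.82 and 12.19 in Pdgfra (adjusted p = 0.102), and Npnt, Inmt and Plin2 were not called either. There were 3 lower members with Axin2 library 1 left out, 1 with Axin2 library 2, 2 with Pdgfra library 1, 1 with Pdgfra library 2, and 8 and 7 with Negative libraries 0 and 2 left out. Macf1 was the member of the 3 called in every such fit. The call of Cdh11 was lost without Axin2 library 2 or Pdgfra library 2, and that of Scn7a without Axin2 library 2 or either Pdgfra library.

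Of 20 adventitial fibroblast genes, 2 were lower in Axin2, none was higher, and the median was -0.60 (-1.03 without Pdgfra library 1). Both lower ones encode small leucine-rich proteoglycans that bind collagen fibrils. Lum, lumican, had 4.91 and 6.35 in Axin2 and 11.68 and 13.92 in Pdgfra (-7.17 ± 1.19; limma, adjusted p = 0.00694). Dcn, decorin, had 12.55 and 11.88 in Axin2 against 14.21 and 14.97 in Pdgfra (-2.38 ± 0.54; adjusted p = 0.0337). Pi16, Col14a1, Dpt, Cd34, Mfap4 and C3 did not pass the test, and Col14a1, Dpt, Mfap4 and C3 overlapped between the lineages. The call of Lum was lost without Axin2 library 1 or Pdgfra library 2 (adjusted p up to 0.114), and that of Dcn without any of the 4 libraries or Axin2:Pdgfra library 1 (adjusted p up to 0.298).

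Matrix genes gave calls in both directions. Basement membrane genes had 3 higher of 16 and none lower, with a median of 0.88 (0.58 with the second index as a term). Col4a1 and Col4a2 encode the paired chains of the main collagen IV network. Col4a2 had 15.45 and 15.64 in Axin2 and 13.54 and 14.10 in Pdgfra (1.72 ± 0.25; limma, adjusted p = 0.00346), and Col4a1 had 15.30 and 15.53 in Axin2 against 14.05 and 14.24 in Pdgfra (1.27 ± 0.25; adjusted p = 0.0179). Hspg2, perlecan, was the third. Among 25 collagen chain genes, Col4a1 and Col4a2 were the 2 called, and neither the fibrillar collagen genes nor those of collagen VI passed the test. Among 20 matricellular and adhesion genes, Postn and Sparc were higher and Thbs1 and Fn1 lower. Fn1, fibronectin, had 15.61 and 15.68 in Axin2 against 16.45 and 16.85 in Pdgfra (-1.0 ± 0.23; adjusted p = 0.0398). Bgn was higher by 0.86 ± 0.18 (adjusted p = 0.0266), while Efemp1, an elastic fibre gene, was lower by a difference of -1.50 ± 0.33 (adjusted p = 0.0314), next to Lum and Dcn.

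In collagen cross-linking, Lox, lysyl oxidase, had 12.65 and 11.42 in Axin2 against 14.56 and 13.73 in Pdgfra (-2.11 ± 0.43; limma, adjusted p = 0.0209), and Plod3, a lysyl hydroxylase, had 12.18 and 12.39 in Axin2 against 8.77 and 10.01 in Pdgfra (2.89 ± 0.59; adjusted p = 0.0209). Among 15 integrins, Itga4 and Itga1 were higher and Itga9 lower. Itga4, a receptor subunit for fibronectin and VCAM1, had 12.32 and 12.18 in Axin2 and 6.76 and 6.59 in Pdgfra (5.58 ± 1.0; adjusted p = 0.0102). Ltbp2, a latent TGF-beta binding protein of elastic fibres, had 15.47 and 16.39 in Axin2 against 11.42 and 12.22 in Pdgfra (4.11 ± 0.45; adjusted p = 0.000356), one of 18 TGF-beta genes of which Thbs1 was the one lower. Apart from Postn and Ltbp2, each call of this and the preceding paragraph was lost without at least 1 library. Col4a2 was lost without Axin2 library 2 or Pdgfra library 1. Col4a1, Hspg2, Sparc, Bgn, Itga1 and Itga4 were lost without any 1 of the 4 libraries, and so were Fn1, Efemp1 and Itga9, which were lost also without libraries of other lineages (Axin2:Pdgfra for Fn1 and Itga9, Wnt2 for Efemp1 and Itga9). Plod3 and Thbs1 were lost without either Axin2 library or Pdgfra library 1, and Lox without Axin2 library 2 or either Pdgfra library. With the second index as a term the calls of Hspg2, Sparc, Bgn, Plod3, Fn1, Thbs1, Efemp1 and Itga9 were lost, and with the length trend removed those of Fn1, Thbs1 and Itga9, which left no lower matricellular or TGF-beta gene.

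Signals to epithelium, vessels and immune cells gave few calls, all of them lower in Axin2. The IL6 family showed the most, with 3 of 12 lower, none higher and a median of -0.95 (-0.49 without Pdgfra library 1). Il6, the cytokine gene, had 3.36 and 1.75 in Axin2, the second being the lowest value of that library, and 9.89 and 9.92 in Pdgfra (limma, adjusted p = 0.0245). Osmr, the oncostatin M receptor, had 11.62 and 11.64 in Axin2 against 13.63 and 14.01 in Pdgfra (-2.19 ± 0.35; adjusted p = 0.00569), and Il6ra, the IL6 receptor, had 6.91 and 8.87 in Axin2 against 11.24 and 11.79 in Pdgfra (-3.62 ± 0.78; adjusted p = 0.0274). The shared signalling chain Il6st and the kinase gene Jak1 did not pass the test. With only the 4 libraries of the compared lineages in the fit, 1 member of the list was called lower, and likewise 1 with only the 8 libraries of 1 line. All 3 calls were lost without Axin2 library 2 or Pdgfra library 2. Those of Il6 and Il6ra were lost also without Axin2 library 1, Pdgfra library 1 or Wnt2 library 1, and that of Il6ra without Wnt2 library 2. Vegfa, the vascular growth factor, was the 1 of 16 growth factors called, at 13.20 and 12.30 in Axin2 against 14.92 and 14.12 in Pdgfra (-1.77 ± 0.34; adjusted p = 0.0168), a call lost without Axin2 library 2 or Pdgfra library 1. The growth factors were not lower as a list. Their median difference was 0.67, with 9 positive and 7 negative, and 0.22 to 1.20 with a library left out.

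Developmental pathways other than Notch gave few calls. None of 22 Wnt ligands, R-spondins, receptors and antagonists was called (limma; 4 at an unadjusted p under 0.05). Their median of -0.17 turned its sign without Axin2 library 1 (0.06) and with a stricter filter (0.05). It was -0.11 without Axin2 library 2 and -0.34 without Pdgfra library 1. Rspo1, an amplifier of Wnt signals, had 9.14 and 10.44 in Axin2 against 6.96 and 4.17 in Pdgfra (adjusted p = 0.236). Sfrp2, a secreted Wnt antagonist, had 7.16 and 7.76 in Axin2 and was at the lowest value of the library in both of Pdgfra (adjusted p = 0.144). Of 14 canonical Wnt target genes, Ccnd1, cyclin D1, was lower, at 9.33 and 8.20 in Axin2 against 12.48 and 11.94 in Pdgfra (-3.45 ± 0.77; adjusted p = 0.0322). In the Hedgehog pathway Hhip, a target that binds and restrains Hedgehog ligands, was the 1 of 10 called, at 10.28 and 8.64 in Axin2 against 13.69 and 13.68 in Pdgfra (-4.22 ± 0.73; adjusted p = 0.00822). The receptor Ptch1 and the effector Gli1, targets of the same pathway, overlapped. No gene among 14 FGF, 16 BMP or 14 retinoid genes was called by limma; at an unadjusted p under 0.05 there were 7 FGF, 9 BMP and 1 retinoid gene. Fgf7, a growth factor for alveolar epithelium, had 9.79 and 8.22 in Axin2 against 11.03 and 12.02 in Pdgfra (-2.52 ± 0.70; adjusted p = 0.0828), and Bmp2 had 10.75 and 8.84 in Axin2 against 4.75 and 4.17 in Pdgfra (adjusted p = 0.268). The call of Hhip was lost without Axin2 library 2 or either Pdgfra library, and that of Ccnd1 without any of the 4 libraries or either Wnt2 library.

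Axon guidance genes, which also steer vessels and mesenchymal cells, had 5 of 24 lower and none higher, with a median of -1.09 (-0.67 without Axin2 library 2). Slit2, a secreted repellent, had 11.76 and 10.78 in Axin2 and 13.62 and 14.10 in Pdgfra (-2.59 ± 0.44; limma, adjusted p = 0.0077). Its receptor Robo1 had 9.65 and 10.14 in Axin2 against 12.18 and 12.10 in Pdgfra (-2.25 ± 0.53; adjusted p = 0.0434). Ligand and receptor of 1 pair were thus both lower in Axin2. Efnb2, the ephrin-B2 ligand, had 10.68 and 10.70 in Axin2 against 14.00 and 13.01 in Pdgfra (-2.81 ± 0.47; adjusted p = 0.00694). Unc5c, a netrin receptor, and Sema6a were the others. The calls of Slit2 and Unc5c were lost without Axin2 library 2 or either Pdgfra library. That of Efnb2 was lost without either Axin2 library or Pdgfra library 1. Robo1 and Sema6a lost theirs without any 1 of the 4 libraries of the compared lineages or either Wnt2 library. There were 2 lower members with Axin2 library 1 left out, 0 with Axin2 library 2 or Pdgfra library 1, 1 with Pdgfra library 2, and 3 without either Wnt2 library, with the second index as a term or with the length trend removed.

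Of 21 immediate early genes, which respond within minutes to stimuli and to tissue dissociation, 6 were lower in Axin2, none was higher, and 20 had a negative difference (median -1.0). Egr1 had 15.66 and 15.77 in Axin2 and 16.74 in both Pdgfra libraries (-1.03 ± 0.19; limma, adjusted p = 0.0144). Zfp36, which destabilises cytokine mRNAs, had 13.76 and 14.22 in Axin2 against 15.33 and 15.64 in Pdgfra (-1.50 ± 0.24; adjusted p = 0.00618). Nr4a1, Fosb, Jun and Btg2 were the others. The call of Zfp36 was lost without Axin2 library 1 or Pdgfra library 2. Those of Egr1, Nr4a1, Fosb, Jun and Btg2 were lost without any 1 of the 4 libraries of the compared lineages, and that of Jun also without either Axin2:Pdgfra library. The log2 of the summed linear levels of the 21 was 17.95 and 17.93 in Axin2 against 19.00 and 18.92 in Pdgfra. Such a sum is set mostly by the most abundant members. Il6, given above, is known to be induced by the same stimuli, and the part of tissue dissociation in these results was not tested. No member was called lower with Axin2 library 1 or Pdgfra library 2 left out, 1 with Axin2 library 2 or Pdgfra library 1 left out, and 3 with the second index as a term.

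The largest differences included genes of other kinds. Tmem200a, which encodes a transmembrane protein, had 10.72 and 11.51 in Axin2 and 1.55 and 2.70 in Pdgfra (8.99 ± 1.80; limma, adjusted p = 0.0198). Map3k7cl had 12.10 and 13.16 in Axin2 against 5.0 and 2.45 in Pdgfra, and Parm1 had 12.46 and 13.21 in Axin2 against 2.67 and 5.77 in Pdgfra. Both Axin2 libraries were far above both Pdgfra libraries in each. Trarg1, a regulator of the glucose transporter GLUT4, had 14.54 and 14.53 in Axin2 and 7.89 and 6.22 in Pdgfra (7.48 ± 1.22; adjusted p = 0.00618). Hamp, which encodes the iron hormone hepcidin, had 10.42 and 9.15 in Axin2 against 1.55 and 2.45 in Pdgfra, and lay between 1.0 and 2.67 in the 6 libraries of the other lineages. It passed the filter on low values through the Axin2 libraries alone, so it had to differ, and no test of it is given. Tdgf1, Slc6a17, Cacna1a, Lrrc3 and Aplp1 completed the 12 that the rule for named genes takes by size, beside Kcnmb1 and Cnn1. Parm1 and Cnn1 lost their call without 3 of the 4 libraries. Tmem200a, Trarg1, Tdgf1, Slc6a17, Cacna1a, Lrrc3, Aplp1 and Kcnmb1 lost theirs without any 1 of the 4. Pcdh18, a protocadherin, had 14.64 and 15.22 in Axin2 against 9.83 and 10.49 in Pdgfra (4.77 ± 0.52; adjusted p = 0.000356), and Flna, the actin cross-linker filamin A, had 16.80 and 17.13 in Axin2 against 15.01 and 15.06 in Pdgfra (1.93 ± 0.25; adjusted p = 0.00137). Pcdh18 stood without each library, and Flna was lost without Axin2 library 2 (adjusted p = 0.0509). Lrrc4c, Nmur1, Susd5, Myl7 and Sox10 were higher in Axin2, while both Pdgfra libraries listed them at the lowest value. All 5 calls were lost without any 1 of the 4 libraries. Outside Axin2, the genes Map3k7cl, Nmur1, Susd5 and Myl7 each reached 6 in 1 library alone, a Negative one. They therefore passed the filter only with the Axin2 libraries, and their calls give no support of their own.

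Among genes lower in Axin2, the smallest p belonged to Neat1, the long noncoding RNA that builds nuclear paraspeckles. It had 12.83 and 12.56 in Axin2 and 16.58 and 16.14 in Pdgfra (-3.66 ± 0.28; limma, adjusted p = 1.84e-05). Gria3, an AMPA receptor subunit, had 8.46 and 9.19 in Axin2 against 13.72 and 13.12 in Pdgfra (-4.60 ± 0.49; adjusted p = 0.000356), and Sned1, a matrix glycoprotein, had 8.85 and 10.37 in Axin2 against 14.08 and 14.48 in Pdgfra (-4.67 ± 0.52; adjusted p = 0.000375). Fat3, a giant cadherin, and Ptprd, a receptor tyrosine phosphatase, followed, at -3.36 ± 0.39 (adjusted p = 0.00061) and -2.20 ± 0.26 (adjusted p = 0.000851). These 5 calls stood without each library. Of the genes above the lowest value in an Axin2 library, the largest difference was that of Gm15948, a predicted gene, with 3.80 and 1.75 in Axin2 against 11.98 and 11.50 in Pdgfra (adjusted p = 0.00112). Ddo, the D-aspartate oxidase gene, had 3.13 and 1.75 in Axin2 against 9.98 and 10.17 in Pdgfra (adjusted p = 0.0129). Both Axin2 libraries listed Fam163b at the lowest value, against 13.00 and 12.35 in Pdgfra (adjusted p = 0.00574), and likewise A730049H05Rik, Zmat4, Fam229b and Chdh. Ddo lost its call without Axin2 library 2 or either Pdgfra library, and Fam163b without Axin2 library 2 or Pdgfra library 1. Those of Zmat4, Fam229b and Chdh were lost without any of the 4 libraries. Outside Pdgfra, Zmat4 reached 6 in Wnt2 library 1 alone. It therefore passed the filter only with the Pdgfra libraries, and its call gives no support of its own.

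Another set was noticed after the values were seen. Srrm2, Srsf11, Luc7l2, Luc7l3, Rbm25, Srek1, Pnisr, Acin1 and Hnrnph1, which encode splicing factors, many of them in nuclear speckles, were all lower in Axin2. Srek1 differed by -3.75 ± 0.62 (limma, adjusted p = 0.00694), Srsf11 by -2.80 ± 0.44 (adjusted p = 0.00508) and Srrm2 by -1.57 ± 0.27 (adjusted p = 0.00842). Since they were picked for their direction, they have no count against other genes. Also picked in this way, the orphan nuclear receptor genes Nr4a2 and Nr4a3 differed by -4.16 ± 0.79 and -3.70 ± 0.47 (adjusted p = 0.0157 and 0.0012), and Ptgs2, cyclooxygenase 2, by -3.21 ± 0.70 (adjusted p = 0.0291), in the direction of the immediate early genes. Among higher genes, the sphingosine 1-phosphate receptor gene S1pr3 differed by 2.27 ± 0.32 (adjusted p = 0.00218), the connexin gene Gja4 by 2.57 ± 0.60 (adjusted p = 0.041) and the cytoskeletal gene Actb by 0.94 ± 0.17 (adjusted p = 0.0137). Of these genes Nr4a3 kept its call without each library. S1pr3 was lost without Axin2 library 2, and Srsf11, Srek1 and Pnisr without Axin2 library 2 or Pdgfra library 1. All the others were lost without at least 3 of the 4 libraries of the compared lineages, and Luc7l3, Acin1, Hnrnph1, Ptgs2 and Gja4 also without a Wnt2 library.

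Exonic length moved with the difference. The median exonic length, in the GENCODE vM21 annotation of GRCm38, was 4.69 kb for genes higher in Axin2, 7.87 kb for genes lower and 4.29 kb for all genes tested. When the 14054 genes with a length were cut into 5 bins of like size, the median difference was 0.65 in the shortest and -0.40 in the longest. The longest bin held 32 of the higher and 91 of the lower calls, the shortest 24 and 6. Genes with a span over 100 kb made up 24.1% of those higher, 39.5% of those lower and 13.5% of all. With a trend on length removed from each library, an alternative added after the values were seen, 151 genes were called higher and 157 lower. Under it 12 pericyte and 9 contractile genes were higher, against 14 and 10 in the main fit. Of the 98 named calls 11 were lost. Among them were those of Pdgfra, Fn1, Thbs1, Itga9, Flt1 and Robo1, lower in Axin2, and that of Lrrn4, higher in Axin2. Whether length takes part in the calls was not tested further.

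**Figure D3:**
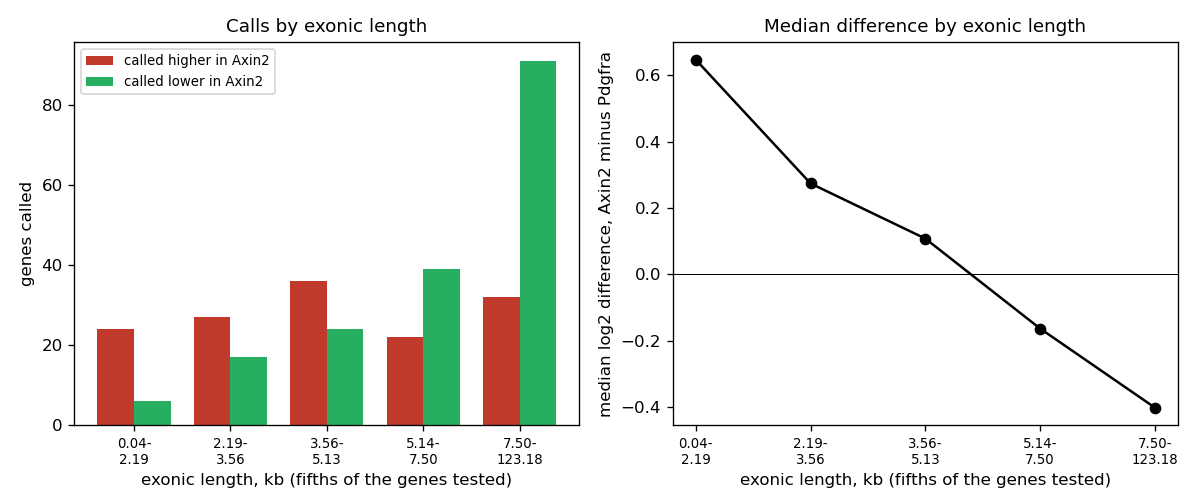
Genes called in Axin2 minus Pdgfra (left, bars) and the median log2 difference of all genes tested (right, points) in 5 bins of exonic length in kb. The median difference falls with length, with 0.65 in the shortest bin and -0.40 in the longest, and 91 of the calls lower in Axin2 lie in the longest bin.

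Markers of other cell types were present in both lineages, and their part in the calls was not tested. Sums here are the log2 of summed linear levels, which the most abundant members dominate. Endothelial genes summed to 15.87 and 15.71 in Axin2 and 16.58 and 16.60 in Pdgfra. Of 16 tested, 14 had a negative difference, and Flt1, a VEGF receptor, was the 1 called (-2.19 ± 0.50; limma, adjusted p = 0.0342), though not without any 1 of the 4 libraries or either Wnt2 library. Epithelial genes summed to 16.49 and 15.93 in Axin2 against 17.35 and 16.71 in Pdgfra. Immune genes summed to 14.34 and 13.34 in Axin2 against 15.02 and 14.65 in Pdgfra. None of 18 epithelial and none of 14 immune genes was called by limma, and 2 of each had an unadjusted p under 0.05. The median immune difference was 0.13, with 8 positive and 6 negative, unlike the sums. It turned its sign without Axin2 library 1 (-0.62) or Pdgfra library 1 (-0.32). Erythroid genes summed to 8.50 and 8.34 in Axin2 against 10.99 and 10.20 in Pdgfra, and none of 4 was called (1 at an unadjusted p under 0.05). The opposite held for mesothelial genes, at 12.81 and 13.24 in Axin2 against 10.46 and 10.21 in Pdgfra. All 7 had a positive difference, and Lrrn4 was the 1 called, a call lost without any library except the Negative ones. Schwann cell genes summed to 10.41 and 10.76 in Axin2, where 1 and 0 of 5 were listed at the lowest value, against 4.17 and 6.30 in Pdgfra, where 4 and 3 were. Sox10, the defining transcription factor of Schwann cells, had 8.48 and 8.79 in Axin2. None of 9 cell cycle genes was called by limma, and 1 had an unadjusted p under 0.05.

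The genes called were then read in all 5 lineages. Over the 141 higher genes the median level was 13.21 in Axin2, 11.89 in Negative, 10.31 in Axin2:Pdgfra, 9.74 in Pdgfra and 9.29 in Wnt2. Over the 179 lower genes it was 10.28 in Axin2, 11.13 in Negative, 11.91 in Axin2:Pdgfra, 12.44 in Wnt2 and 12.96 in Pdgfra. The Axin2 and Pdgfra levels were used to choose these genes. Those of the other lineages entered the choice through the spread and through the filter on low values, which counts all 10 libraries. The double-labelled Axin2:Pdgfra mean was nearer to Pdgfra than to Axin2 for 117 of the 141 higher genes (83.0%) and 136 of the 179 lower ones (76.0%), beside 49.1% of all genes tested. The Wnt2 mean was nearer to Pdgfra for 129 (91.5%) and 157 (87.7%), beside 60.1% of all. Negative cells stood the other way, nearer to Axin2 for 103 (73.0%) and 127 (70.9%), beside 54.1% of all. Pdgfrb was one such gene, with 12.61 and 12.67 in Axin2:Pdgfra, 15.49 and 15.02 in Negative and 10.86 and 10.94 in Wnt2. Acta2 differed between libraries of 1 lineage, at 13.65 and 11.80 in Axin2:Pdgfra and 14.35 and 12.09 in Negative. Some genes stood otherwise. Neat1, at 13.40 and 13.77 in Axin2:Pdgfra, was nearer there to Axin2 than to Pdgfra, and Fam163b, at 1.70 and 4.74, was far under its Pdgfra values. Hhip, at 14.79 and 13.76 in Axin2:Pdgfra and 10.90 and 9.04 in Wnt2, followed Pdgfra in the first and Axin2 in the second.

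**Figure D4:**
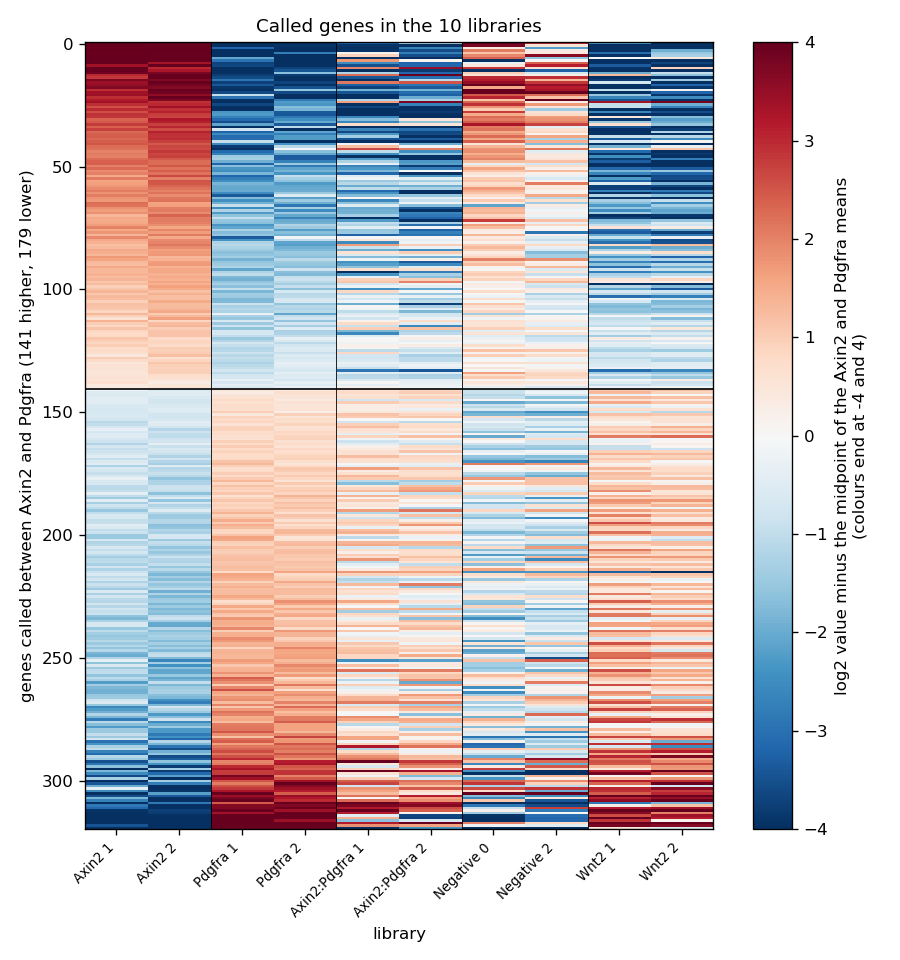
The 320 genes called between Axin2 and Pdgfra (rows, 141 higher above the line and 179 lower below it) in the 10 libraries (columns). Colour is the log2 value minus the midpoint of the Axin2 and Pdgfra means, so the contrast of the first 4 columns was used to choose the rows; the Axin2:Pdgfra mean is nearer to Pdgfra for 83.0% and 76.0% of them.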

How the data were processed

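RNA was extracted with Trizol from FACS-sorted lungs, per the labels' protocols. Per the submitters' processing notes, STAR, limma and the build mm9 were used; the version and role of each tool is not given in the sources used here. Each deposited file holds 1 log2 value per gene. The log base was inferred from the values, which have near-identical distributions across libraries, as quantile normalization leaves them. They hold no counts, so depth is unknown and no counting interval is given.

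Symbols were matched to 14720 of 14854 Ensembl identifiers. Genes with a value of at least 6 in at least 2 of 10 libraries were tested (14177). limma 3.58.1 in R 4.3.3 (lmFit, eBayes with trend and robust) was fitted to all 10 libraries with a mean per lineage and no block or covariate, leaving 5 residual degrees of freedom. Tests were two-sided, with Benjamini-Hochberg adjustment over all genes tested and a threshold of 0.05. Scripts were tested on simulated data. A gene whose value equals a library's lowest is called listed at the lowest value, and no fold is given where both libraries of a lineage are.

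The members and the 34 gene lists were chosen with earlier results of these data known, so the lists give no independent support. The rule for named genes takes Axin2, Pdgfra, Pdgfrb and Wnt2; among called genes with a symbol and a mean of at least 9 in the higher lineage, the 12 with the largest difference and the 8 with the smallest p in each direction; 5 in each direction listed at the lowest value in the other lineage; up to 4 called members per list and direction, or 2 uncalled where none was; and any member of the pericyte, contractile, adventitial and alveolar lists. A few others are given as members of their list or said to have been picked later. One called gene is not reported here.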

Additional observations from a re-analysis of the deposited data

How the results depend on the processing

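The direction of the 98 called genes named was kept in each alternative run. Genes called numbered 313 to 341 with no filter, a stricter filter, low values raised to 6, median centring or repeated quantile normalization. They numbered 363 (179 higher, 184 lower) with only the 4 libraries of the compared lineages, where 18 of the 98 calls were lost. With only the 8 libraries of 1 line they numbered 206 (96 lower), and without trend and robust estimation 61 (32 higher, 29 lower). They numbered 179 (78 higher, 101 lower) with the second index as a term, and 469 with library weights. With each library left out in turn, they ranged from 32 to 541, with 9 to 221 higher and 20 to 320 lower. With any 1 of the 4 libraries of the compared lineages left out, 62 to 78 of the 98 calls were lost; without trend and robust estimation 76 were. The cause of these changes was not tested. Genes that did not pass the test and turned their sign in a fit without 1 library had ranges over those fits of -0.84 to 6.76 (Fgf14), -0.26 to 0.84 (Axin2), -0.27 to 2.38 (Wnt2), -0.91 to 0.57 (Tcf21), -0.65 to 0.13 (Abcc9) and -0.54 to 2.67 (Kcnj8). Axin2 was at -0.04 without Pdgfra library 1 and Tcf21 at 0.21 without Pdgfra library 2, and Abcc9 was at 0.070 with the length trend removed.

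Deviations of same-numbered Axin2 and Pdgfra libraries correlated at 0.03 across genes. With 2 libraries a lineage, this shows no sign of pairing by replicate number but cannot exclude it. A replicate block was fitted to 9 libraries, without Negative library 0. Leaving that library out with no block raised the number of genes called, as given above. With the replicate block 467 genes were called, 284 of them lower, and 2 of the 98 named calls were lost.

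With 2 libraries a lineage and no counts, the precision of low genes cannot be given, and values near a library's lowest depend on it.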
